A study of Homo sapiens with 3 samples.

Results

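DNA replication and G1/S genes were followed as a list of 41 genes in KYSE180 cells, an established human line from squamous carcinoma of the oesophagus. Each gene was read by all probe sets whose only annotated symbol is that gene's. All 41 were found, on 109 of the 44988 such probe sets, out of 18132 genes represented on the arrays. The study hybridised 3 arrays. The HOTAIR vector array held RNA of KYSE180 cells that had received the LZRS_HOTAIR vector with Polyfect, HOTAIR being a long non-coding RNA. The HOTAIR siRNA array held RNA of cells transfected with 100 pmol of mixed Stealth siRNAs against HOTAIR with Lipofectamine2000, and the control array held RNA of cells labelled only as control. RNA of the vector and siRNA cells was taken 48 h after transfection, and no such time is recorded for the control cells. The siRNA sample's title and cell line field give KYSE180 while its source name gives a HOTAIR cell line, so the cell line and the siRNA cannot be told apart if the source name holds. The design names a negative control siRNA, but the control sample's own labels do not say whether it received it or any reagent. The reagent and the kind of nucleic acid differ between the vector and siRNA cells and cannot be told apart from HOTAIR's level. All groups were grown in the same medium with fetal bovine serum.

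DNA replication is prepared in G1, when the origin recognition complex (ORC1 to ORC6), CDC6 and CDT1 load the MCM2 to MCM7 helicase onto origins, and geminin (GMNN) stops loading once S phase begins. The kinases CDC7 and cyclin E with its partner kinase then let CDC45 and the GINS proteins turn the loaded ring into a moving helicase, behind which primase, polymerases, the clamp PCNA and its loader RFC copy the strands. Many of these genes are known targets of E2F transcription factors and are known to be induced together as cells enter S phase.

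The members lay on both sides of control. A small set, led by the origin recognition genes ORC3 and ORC4, the cyclin gene CCNE2 and the kinase gene CDC7, was several fold higher on both transfected arrays than on the control array. Most of the other loading, helicase and E2F genes lay within 2-fold of control, many of them somewhat below it. Of all 41 members 21 were below control in each comparison. Among all genes that passed a filter on dim genes it was 59.2% in vector and 58.8% in siRNA minus control. Between the vector and the siRNA arrays no member's brightest probe set differed by 1.5-fold. Each group had 1 array, so no value has a replicate check and no test was possible. The only measured error is the spread between probe sets of a gene, which share the same RNA. In such bulk samples, fewer cells in S phase and less RNA per cell cannot be told apart.

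**Figure D1:**
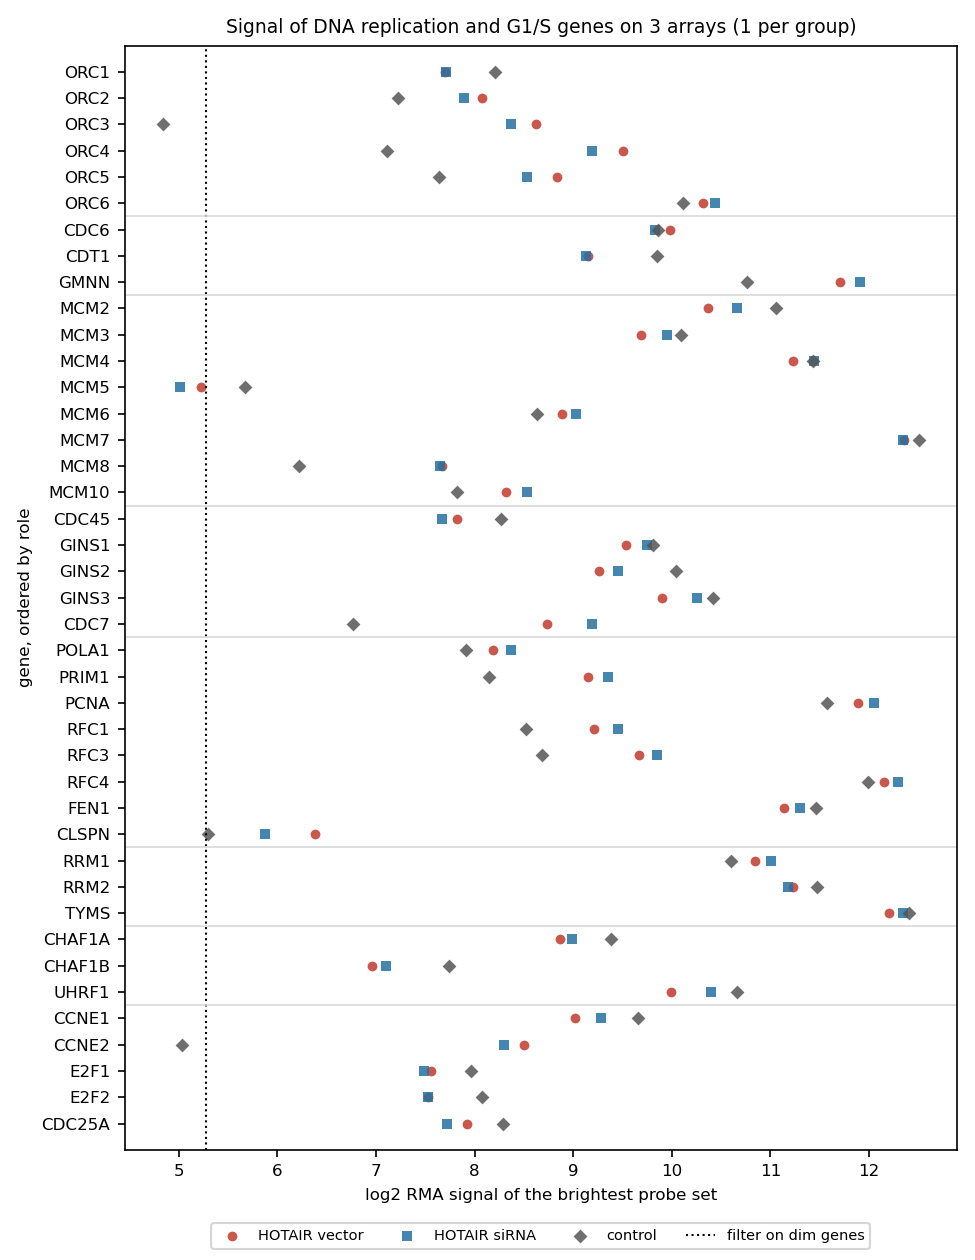
Log2 RMA signal (horizontal axis) of each gene's brightest probe set on the HOTAIR vector, HOTAIR siRNA and control arrays (1 array each), with genes ordered by role and separated by grey lines. ORC3, ORC4, CCNE2, CDC7 and MCM8 show the control point far left of the others, while MCM2, CDT1 and CHAF1B show it on the right. Levels are not comparable between genes.

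Promoter windows are shown for members far above control and for members near or below it, to set their E2F letters side by side. RefSeq (GRCh38.p14) gave start sites for 38 of the 41 members, leaving CCNE2, MCM4 and MCM5, and each window runs from 250 bases before the start to 30 bases from it on. The E2F letters searched were TTTCGCGC and TTTGGCGC, and the CCAAT box, bound by NF-Y, was searched as CCAAT, each on both strands. The 8 windows below were chosen after their values were seen, with the matches to either motif in capitals. The first 3 belong to the members with a single window that were highest in vector minus control, ORC3 (chr6:87589885-87590164, plus strand), MCM8 (chr20:5950402-5950681, plus strand) and ORC5 (chr7:104207984-104208263, minus strand), and they hold no E2F match.
ORC3: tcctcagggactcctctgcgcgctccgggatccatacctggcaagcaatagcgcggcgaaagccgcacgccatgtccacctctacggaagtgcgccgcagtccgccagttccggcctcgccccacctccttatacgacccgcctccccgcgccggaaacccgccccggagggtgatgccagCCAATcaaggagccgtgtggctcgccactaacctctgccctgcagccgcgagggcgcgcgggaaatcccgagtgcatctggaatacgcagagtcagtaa
MCM8: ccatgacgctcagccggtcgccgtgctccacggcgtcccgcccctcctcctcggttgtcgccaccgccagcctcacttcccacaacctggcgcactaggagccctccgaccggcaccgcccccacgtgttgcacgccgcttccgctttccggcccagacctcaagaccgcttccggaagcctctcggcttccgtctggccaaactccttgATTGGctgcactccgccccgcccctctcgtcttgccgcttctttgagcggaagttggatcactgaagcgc
ORC5: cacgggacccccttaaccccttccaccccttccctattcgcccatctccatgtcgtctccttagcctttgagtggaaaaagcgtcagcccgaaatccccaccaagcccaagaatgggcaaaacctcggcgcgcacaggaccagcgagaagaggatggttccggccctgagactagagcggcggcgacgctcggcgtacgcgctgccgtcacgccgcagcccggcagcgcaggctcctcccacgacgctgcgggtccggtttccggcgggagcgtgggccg

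The next 4 windows hold E2F matches, and their genes lay within 2-fold of control on both transfected arrays. They are CDC6 (chr17:40287629-40287908, plus strand), MCM2 (chr3:127598161-127598440, plus strand), MCM6 (chr2:135876414-135876693, minus strand) and E2F1 (chr20:33686356-33686635, minus strand). In MCM2 and MCM6 matches on opposite strands overlap, which gives MCM2 a count of 2 and MCM6 a count of 4. CDT1 (chr16:88803539-88803818, plus strand) comes last, as a member below control. Its window holds no match to the letters searched, but does hold letters close to the E2F ones.
CDC6: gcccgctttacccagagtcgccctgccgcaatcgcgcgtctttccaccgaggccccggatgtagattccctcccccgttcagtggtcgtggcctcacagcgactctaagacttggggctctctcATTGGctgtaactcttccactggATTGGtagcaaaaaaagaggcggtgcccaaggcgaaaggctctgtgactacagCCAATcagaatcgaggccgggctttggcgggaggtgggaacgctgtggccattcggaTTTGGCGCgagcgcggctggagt
MCM2: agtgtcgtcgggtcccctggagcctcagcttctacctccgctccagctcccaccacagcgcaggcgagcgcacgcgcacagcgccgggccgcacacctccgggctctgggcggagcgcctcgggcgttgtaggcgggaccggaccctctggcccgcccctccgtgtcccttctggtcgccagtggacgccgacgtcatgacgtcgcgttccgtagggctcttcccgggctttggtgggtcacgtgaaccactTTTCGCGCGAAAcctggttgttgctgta
MCM6: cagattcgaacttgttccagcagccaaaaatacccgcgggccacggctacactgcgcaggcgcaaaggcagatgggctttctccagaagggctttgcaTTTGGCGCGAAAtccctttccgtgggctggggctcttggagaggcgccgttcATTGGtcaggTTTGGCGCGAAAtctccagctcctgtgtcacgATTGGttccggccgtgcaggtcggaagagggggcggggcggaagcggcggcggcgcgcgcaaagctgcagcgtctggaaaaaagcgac
E2F1: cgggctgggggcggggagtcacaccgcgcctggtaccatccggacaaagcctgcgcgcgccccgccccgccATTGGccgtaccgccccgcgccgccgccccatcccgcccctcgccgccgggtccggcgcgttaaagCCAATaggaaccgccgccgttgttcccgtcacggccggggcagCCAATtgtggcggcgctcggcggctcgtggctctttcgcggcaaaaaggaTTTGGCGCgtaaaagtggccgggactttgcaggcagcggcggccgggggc
CDT1: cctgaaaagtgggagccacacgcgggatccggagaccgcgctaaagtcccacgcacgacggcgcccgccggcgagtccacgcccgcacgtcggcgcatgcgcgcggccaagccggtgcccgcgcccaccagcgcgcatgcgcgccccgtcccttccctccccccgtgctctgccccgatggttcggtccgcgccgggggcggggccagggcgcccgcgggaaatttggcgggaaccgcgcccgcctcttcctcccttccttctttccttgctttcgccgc

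Of 49 member windows, since several genes have more than 1 start, 24.5% held an E2F match, against 1.09% of all 35116 windows in the RefSeq table. The CCAAT letters were in 63.3% of the member windows, against 33.6% of all windows. The CHR element of G2/M genes, searched as TTTGAA, was in 2.04% of member windows, against 14.5% of all windows. All windows cover 27305 genes, whatever their signal on the arrays, and were not matched to the members in GC content. The 12 members with an E2F match were CDC6, GMNN, MCM2, MCM3, MCM6, MCM7, GINS1, POLA1, UHRF1, E2F1, E2F2 and CDC25A. Their median difference was -0.32 (log2) for vector minus control, against 0.22 for the 26 members without a match. For siRNA minus control the medians were -0.15 with a match and 0.36 without. None of the 7 members at least 2-fold higher on the vector array that have a window held a match, while 12 of the 31 others did. Related letters that were not searched, as in the ORC3 and CDT1 windows, are not counted. A member without a match, such as CDT1, may therefore still hold an E2F site. On the siRNA array GMNN was the single member with a match among the 7 past 2-fold. GMNN (0.94 in vector minus control as deposited) also passed 2-fold in vector cells after cyclic loess (1.03) and centring (1.13). The count of 0 in vector cells thus holds for the deposited scale and for the letters searched. These are counts of letters in a fixed window, and they do not show binding.

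Vector minus control asked how the members differed after HOTAIR was added. Of the 41 members, 8 were at least 2-fold higher on the vector array, which is 19.5%, and 0 were 2-fold lower. Over the 10917 genes above the filter on dim genes, which asks for a mean log2 signal of 5.28, 15.2% were 2-fold higher and 2.05% lower, so the members' share was near that of all genes. Their median difference was -0.16 (log2), beside -0.18 over all genes, and 21 of 41 were below control, against 59.2% of all genes. For siRNA minus control, again 8 members were at least 2-fold higher and 0 lower, against 14.9% and 1.85% of all genes, with a median of -0.03 beside -0.17 and 21 of 41 below control, against 58.8% of all genes. Since the middle of all genes lies below 0 here, and moves to -0.03 in vector and 0.02 in siRNA minus control after cyclic loess, small differences below control depend on the scaling. Counted by probe set, 23 of the 95 members' probe sets above the filter were 2-fold higher in each comparison (24.2%), against 16.3% of all such probe sets in vector and 15.8% in siRNA cells. In the lower direction it was 0 and 1, against 1.7% and 1.91%. Probe sets of a gene read the same RNA and are not separate units. Genes with several probe sets past 2-fold, such as ORC3, ORC4, MCM8 and CDC7, weigh more in this count. Both comparisons use the same control array, so they are not independent of each other. The largest differences are therefore given gene by gene, with all 3 signals.

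**Figure D2:**
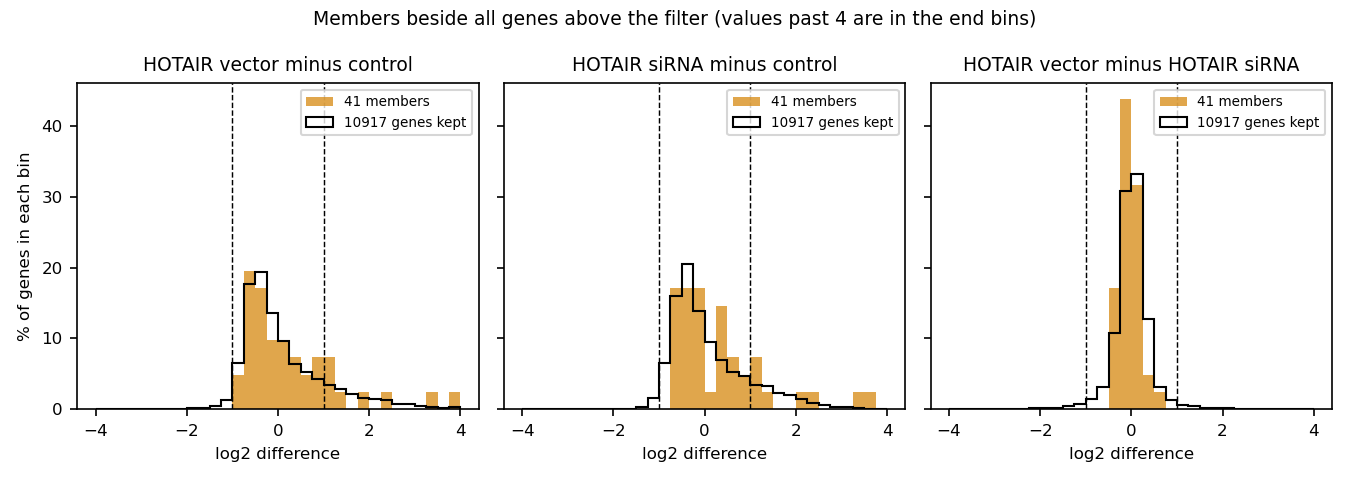
Share of genes (vertical axis, %) in bins of log2 difference (horizontal axis) for the 41 members (filled bars) and the 10917 genes above the filter (black line), with dashed lines at 2-fold. Against control both distributions have a long tail to the right, with 21 of the 41 members below 0, and between the transfected arrays the members all lie within 2-fold.

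Among the origin recognition genes, which encode the complex that marks origins, ORC3 stood furthest from control. Its brightest probe set had log2 signals of 8.62 in vector and 8.37 in siRNA cells, against 4.83 in control cells. Both transfected arrays were high and the control array was below the filter level of 5.28. The difference was 3.79 (log2) in vector and 3.54 in siRNA cells, but ORC3 passed the filter only through the transfected arrays, so its size rests on a dim control signal. Over its 7 probe sets the difference was 2.73 ± 1.42 (log2, mean ± SD over probe sets) for vector and 2.36 ± 1.26 for siRNA minus control. Of these probe sets 6 were past 2-fold in both comparisons, at 2.08 to 4.44 in vector minus control, and the dimmest, with 3.62 in vector and 3.58 in siRNA cells, against 3.37 in control cells, was not.

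ORC4, an ATP-binding subunit of the same complex, had log2 signals of 9.51 in vector and 9.19 in siRNA cells, against 7.12 in control cells. Its 3 probe sets gave 2.62 ± 0.51 for vector minus control and 2.39 ± 0.59 for siRNA minus control, all of them past 2-fold. The control array was again the low one. ORC5 had 8.84 and 8.53 in vector and siRNA cells, against 7.64 in control cells, a difference of 1.19 for vector and 0.89 for siRNA cells, so as deposited it passed 2-fold in vector but not in siRNA cells. It missed 2-fold in vector cells (0.99) after repeated quantile normalization, and passed it in siRNA cells after cyclic loess (1.04) and centring (1.06). ORC2 (0.85 and 0.66) and ORC6 (0.20 and 0.33), in the same order of comparisons, were above control by less than 2-fold as deposited. Over its 3 probe sets ORC2 was at 0.49 ± 0.36 in vector and 0.24 ± 0.38 in siRNA cells. After centring its brightest probe set passed 2-fold in vector cells (1.03). ORC1, the subunit whose level is known to vary most over the cell cycle, was below it, at 7.70 in vector and 7.71 in siRNA cells, against 8.21 in control cells. The 6 subunits of a single complex thus ranged from -0.51 to 3.79 (log2) in vector minus control.

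The licensing factors split. GMNN, the inhibitor of CDT1, had log2 signals of 11.70 in vector and 11.91 in siRNA cells, against 10.76 in control cells. It was 1.92-fold higher in vector and 2.22-fold higher in siRNA cells, on its 1 probe set. CDT1, which brings the MCM ring to origins, had 9.15 in vector and 9.13 in siRNA cells, against 9.85 in control cells. Its 3 probe sets gave -0.81 ± 0.13 (log2) for vector and -0.77 ± 0.13 for siRNA minus control. CDC6, the ATPase that works with ORC in loading, was near control, at 0.12 and -0.03.

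The MCM2 to MCM7 genes, whose products form the replicative helicase ring, lay close to control or below it. Their median was -0.30 (log2) for vector and -0.15 for siRNA minus control, with 5 and 4 of the 6 below 0 and none 2-fold apart. Relative to the median of all genes these medians were -0.12 and 0.02, so the siRNA value had no fixed direction. MCM2 had 10.37 in vector and 10.66 in siRNA cells, against 11.06 in control cells, and all 4 of its probe sets were lower, at -0.68 ± 0.09 in vector and -0.45 ± 0.10 in siRNA cells. MCM3 (-0.41 and -0.14), MCM4 (-0.20 and 0.01) and MCM7 (-0.16 and -0.17) were nearer to control. MCM5 (-0.45 and -0.65) was the lowest of the ring genes in siRNA minus control, with signals of 5.22 in vector and 5.02 in siRNA cells, against 5.67 in control cells, about the level of the filter.

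MCM6 was the ring gene above control, at 0.25 in vector and 0.39 in siRNA cells. A dimmer of its 3 probe sets, with 6.22 in vector and 6.92 in siRNA cells, against 5.35 in control cells, differed by 0.86 and 1.56. For MCM7 a dimmer probe set lay further below control than the brightest one, with 8.26 in vector and 7.89 in siRNA cells, against 8.94 in control cells, and its difference of -1.04 in siRNA cells was the single member probe set 2-fold below control. Both probe sets differed in size, not in sign, from the brightest one of their gene. MCM8, which acts in DNA repair with MCM9 and is not part of the ring, behaved apart from the ring genes. It had 7.66 in vector and 7.65 in siRNA cells, against 6.22 in control cells. It was 2.72-fold and 2.70-fold higher, and 4 of its 5 probe sets passed 2-fold in both comparisons, the other having dim signals of 3.23 in vector and 3.39 in siRNA cells, against 2.84 in control cells. MCM10, which helps to start the moving helicase, was at 0.50 and 0.71 on its brightest probe set, but 0.11 ± 0.34 and 0.27 ± 0.46 over its 3.

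Among the genes that activate the helicase, CDC7 was the exception. CDC7, the kinase that phosphorylates the MCM ring, had log2 signals of 8.73 in vector and 9.19 in siRNA cells, against 6.76 in control cells. It was 3.92-fold higher in vector and 5.39-fold higher in siRNA cells, and its 3 probe sets gave 1.64 ± 0.42 (log2) and 1.92 ± 0.62. The other 4 genes of this group were below control, though relative to the median of all genes 2 of them, GINS1 and GINS3, were above 0 in siRNA cells. CDC45, a helicase subunit, had 7.82 in vector and 7.67 in siRNA cells, against 8.27 in control cells. The GINS genes, whose products complete the helicase, were at -0.28 and -0.06 (GINS1), -0.78 and -0.59 (GINS2) and -0.52 and -0.16 (GINS3). GINS2, with 9.26 in vector and 9.45 in siRNA cells, against 10.04 in control cells, had the lowest difference of the members in vector minus control as deposited. CDT1 was lower with the mean over probe sets (-0.81) and CHAF1B after repeated quantile normalization (-0.98).

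**Figure D3:**
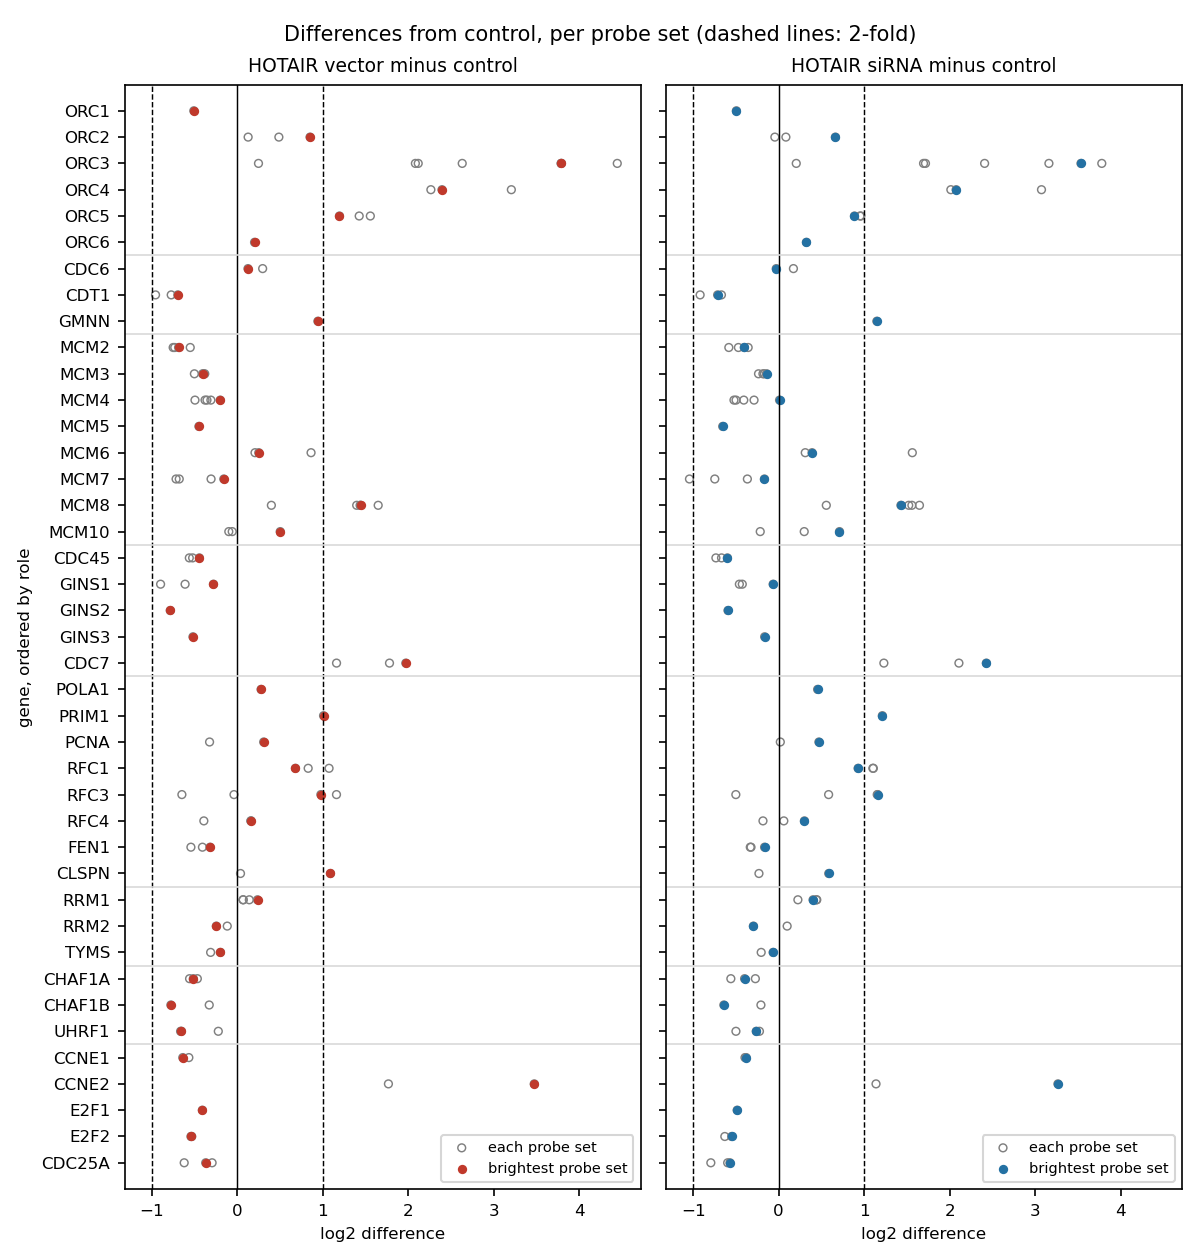
Log2 difference from control (horizontal axis) of every member probe set (open circles) and of each gene's brightest one (filled), for HOTAIR vector minus control on the left and HOTAIR siRNA minus control on the right. Dashed lines mark 2-fold. ORC3, ORC4, MCM8, CDC7 and CCNE2 lie past it on the right in both panels, and the points of MCM2, CDT1 and CHAF1A are bunched below 0.

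Genes of the polymerases, clamp and fork were mostly above control, 7 of 8 in each comparison, with medians of 0.49 (log2) for vector and 0.53 for siRNA minus control. When all probe sets of a gene were averaged it was 4 of 7 in vector and 6 of 7 in siRNA cells, CLSPN then being below the filter. PRIM1, the catalytic subunit of primase, had 9.15 in vector and 9.35 in siRNA cells, against 8.14 in control cells. It was 2.01-fold higher in vector cells, just inside the threshold, and 2.32-fold higher in siRNA cells, on 1 probe set, and missed 2-fold in vector cells (0.83) after repeated quantile normalization. RFC3, a subunit of the clamp loader, had 9.66 in vector and 9.84 in siRNA cells, against 8.68 in control cells. At 0.98 it lay just outside the threshold in vector cells and at 1.16 just past it in siRNA cells, next to GMNN (1.15). In vector cells it passed 2-fold after cyclic loess (1.06) and centring (1.16).

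The RFC3 probe sets disagreed. A second bright one was 1.16 and 1.15 above control, while another, with 5.58 in vector and 5.73 in siRNA cells, against 6.23 in control cells, was below it, and the mean over 4 was 0.36 ± 0.86 and 0.60 ± 0.78. RFC1, the large subunit of the loader, was more even, at 0.86 ± 0.20 in vector and 1.05 ± 0.10 in siRNA cells over 3 probe sets. Its brightest probe set, at 0.68 and 0.93, passed 2-fold in siRNA cells after cyclic loess (1.06) and centring (1.10). RFC4, another loader subunit, was at 0.16 and 0.30, PCNA, the clamp itself, at 0.31 and 0.47, and POLA1, the catalytic subunit of the primase polymerase, at 0.28 and 0.46. FEN1, the nuclease that trims Okazaki fragments, was the member of this group below control (-0.32 and -0.16). CLSPN, the checkpoint adaptor that rides with the fork, had 6.38 in vector and 5.88 in siRNA cells, against 5.29 in control cells, and 1 of its 2 probe sets passed 2-fold in vector cells (1.09), the other being at 0.04.

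Nucleotide supply genes were near control, with no fixed direction in siRNA cells (median -0.06, and 0.11 after centring on all genes). RRM1 and RRM2, the subunits of ribonucleotide reductase, were at 0.24 and -0.25 (log2) for vector minus control and at 0.40 and -0.29 for siRNA minus control. TYMS, which makes thymidylate, was at -0.20 in vector and -0.06 in siRNA cells. The 3 chromatin genes of the fork were all below control. CHAF1B, a subunit of the histone chaperone CAF-1, had 6.96 in vector and 7.10 in siRNA cells, against 7.74 in control cells. CHAF1A, its partner, was at -0.51 ± 0.05 and -0.41 ± 0.14 over 3 probe sets. UHRF1, which guides maintenance methylation of DNA, was at -0.66 in vector and -0.26 in siRNA cells. All 3 stayed below 0 under each scaling run and after centring on the median of all genes.

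The E-type cyclins, which drive the G1/S transition with CDK2, went apart. CCNE2 had log2 signals of 8.50 in vector and 8.30 in siRNA cells, against 5.03 in control cells. The control signal lay below the filter level, so the size of its difference, 3.47 (log2) in vector and 3.27 in siRNA cells, rests on a dim control signal too. Its other probe set had 5.53 in vector and 4.90 in siRNA cells, against 3.76 in control cells, differences of 1.77 and 1.14. CCNE1 had 9.02 in vector and 9.28 in siRNA cells, against 9.66 in control cells, and its 2 probe sets gave -0.60 ± 0.05 and -0.39 ± 0.01. The phosphatase gene CDC25A (-0.37 and -0.57) and the activator E2F genes E2F1 (-0.41 and -0.48) and E2F2 (-0.54 and -0.55) were below control too. Of the 5 regulators, the 4 other than CCNE2 were below 0 under each scaling run.

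Vector minus siRNA compared the opposite manipulations directly, without the control array. No member was 2-fold apart, against 3.58% of all genes above the filter. None reached 1.5-fold on its brightest probe set, but ORC3 did (0.63) when probe sets ending in _x_at and _s_at were left out. Some dimmer probe sets above the filter passed it too, among them those of MCM6 at -0.70 and of ORC5 at 0.60. The members ranged from -0.46 to 0.50 (log2), with a median of -0.14 beside 0.01 over all genes, and 25 of 41 were lower in vector cells, against 47.9% of all genes. In single directions 1.73% of all genes were 2-fold higher in vector cells and 1.85% lower. The spread between probe sets was smaller here, with a pooled SD of 0.15 over 25 members with several probe sets above the filter, against 0.38 and 0.41 in the comparisons with control. Most single differences are of the size of that spread.

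CLSPN was the highest on the brightest probe sets, with 6.38 in vector and 5.88 in siRNA cells, at a dim signal. With the mean over probe sets it was below the filter and ORC5 led (0.46), and without _x_at and _s_at probe sets ORC3 did. ORC4 (0.32), ORC5 (0.31) and ORC3 (0.25) followed, and 4 of the 6 origin recognition genes were higher in vector cells, with a median of 0.22. For ORC5 the 3 probe sets gave 0.46 ± 0.15, all higher in vector cells. At the other end CDC7 was at -0.46, with 8.73 in vector and 9.19 in siRNA cells, and its 3 probe sets were all lower in vector cells. UHRF1 (-0.40), GINS3 (-0.36), MCM2 (-0.29) and MCM3 (-0.27) were next. In the fork group 7 of 8 genes were lower in vector cells, with a median of -0.17, and this count was unchanged after repeated quantile normalization, cyclic loess or centring. The G1/S regulators had no fixed direction, with a median of 0.08 as deposited and just below 0 after cyclic loess.

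**Figure D4:**
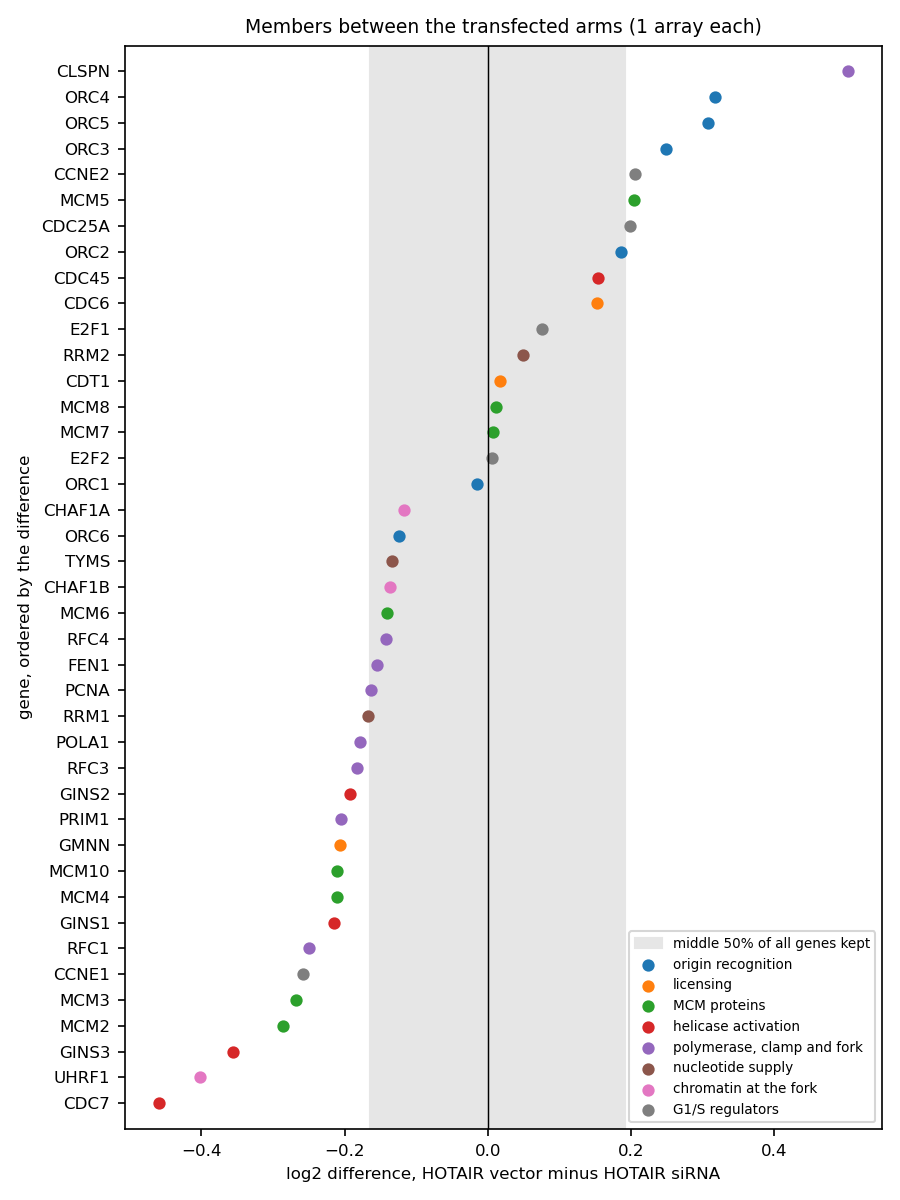
Log2 difference of each member between the HOTAIR vector and HOTAIR siRNA arrays (horizontal axis), ordered by size and coloured by role, with the middle 50% of all genes above the filter in grey. CLSPN, ORC4, ORC5 and ORC3 are at the top and CDC7, UHRF1 and GINS3 at the bottom, all within 1.5-fold.

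Other genes of the pathway, 83 in a list outside the members (WDHD1 stands in it under both of its names), had similar shares past 2-fold. Of the 80 measured, each of which passed the filter, 16 were past 2-fold upward in vector cells and 1 was lower, and 15 were higher in siRNA cells (18.8%) and 3 lower, again not far from the shares over all genes. The highest in vector cells were LIN9, a subunit of the MuvB complex (3.40), RRM2B, the p53-inducible reductase subunit (2.47), ATAD5, which helps to unload PCNA (2.36, over a control signal of 4.56 that lay below the filter level), NPAT, the activator of histone genes (2.01), the checkpoint kinase gene ATR (1.92) and the nuclease gene DNA2 (1.86). In siRNA cells they were LIN9 (2.96), RRM2B (2.32), the fork protein gene WDHD1 (1.92), DNA2 (1.92), the chromatin remodeller gene HELLS (1.91) and ATR (1.80). LIN9 had 7.06 in vector and 6.61 in siRNA cells, against a control signal of 3.65 that lay under that array's first quartile of 3.72. The direction of the fork genes was not shared. The 21 polymerase, primase and fork genes of this list had medians of -0.29 for vector and -0.15 for siRNA minus control. In the members' fork group the medians were 0.49 and 0.53.

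The lower genes were GINS4 in vector cells (-1.11), which completes the GINS complex, and LRWD1 (-1.01), SKP2 (-1.08) and the D-type cyclin gene CCND3 in siRNA cells, the last with 7.86 in siRNA cells, against 8.86 in control cells. DBF4, the activating partner of CDC7, had 9.44 in vector and 9.27 in siRNA cells, against 8.27 in control cells. TOPBP1, an origin firing factor and activator of ATR, was higher by 1.56 and 1.58, and CHEK1, the kinase that ATR activates, was at -0.16 and -0.30. Between the transfected arrays ATAD5 (1.10) and SAMHD1 (1.36) were 2-fold higher in vector cells and 0 were lower, 2.50% of the list against 1.73% of all genes. SAMHD1, which degrades deoxynucleotides, had 7.90 in vector and 6.55 in siRNA cells, and is also known as an interferon-induced gene.

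What else the members past 2-fold share was looked for in the length of the genes. The genomic span of the 8 members higher in vector cells had a median of 49046 bases, against 26022 for the 33 others. Among all kept genes the medians were 57632 bases for the ones past 2-fold in vector cells and 25044 for the ones within it. In siRNA minus control the members gave 36620 bases for the 8 higher genes and 31272 for the others, and all genes 62785 and 25298. Across the 41 members Spearman's rho between span and difference was 0.34 for vector and 0.30 for siRNA minus control, and across 10912 genes it was 0.35 and 0.42. These correlations run across genes that share the same arrays and are given as a description. ORC3, ORC4 and ORC5 span 87689, 91156 and 81673 bases, while CCNE2, with 16470 bases, is a short gene with a large difference. The GC content of the promoter windows showed no common direction. Its median was 66.1% in the 7 higher members of vector cells that have a window, against 63.9% in the 31 others, and 63.9% in both classes for siRNA cells. Over all genes it was 63.6% in the genes 2-fold higher in vector cells, against 65.0% in those within 2-fold, and rho across 38 members was -0.23 and -0.20.

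**Figure D5:**
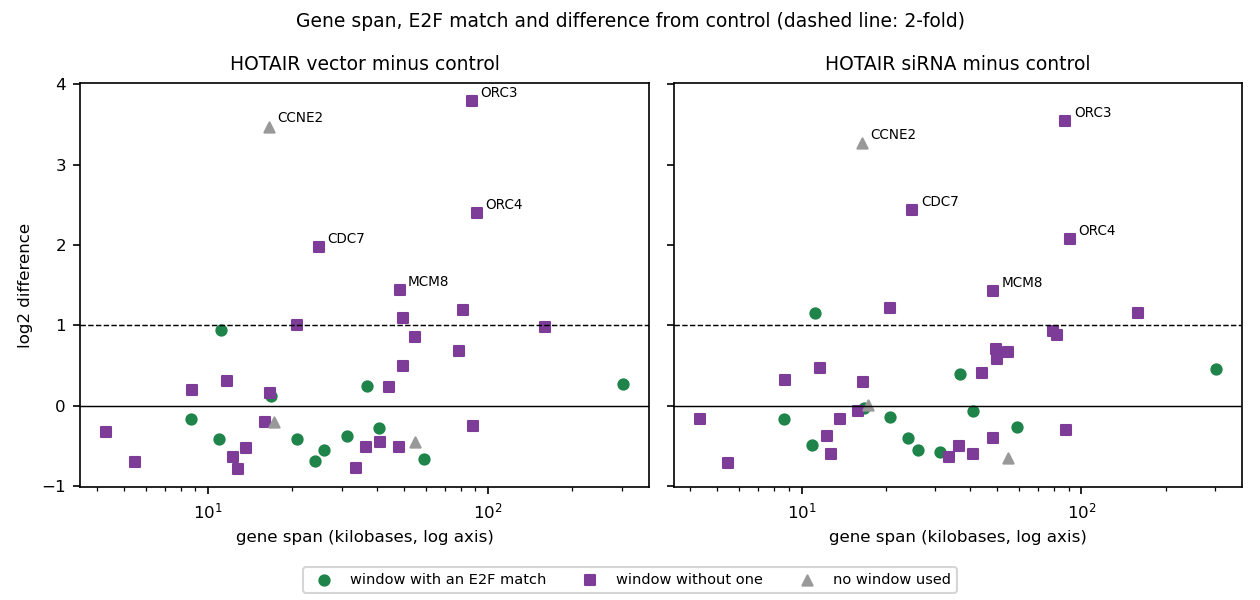
Log2 difference from control (vertical axis) against genomic span (kilobases, log axis) of the members, for HOTAIR vector minus control on the left and HOTAIR siRNA minus control on the right, with colours for an E2F match in the promoter window. ORC3 and ORC4 are long and high, CCNE2 and CDC7 are high at shorter spans, and the genes with an E2F match lie below the 2-fold line, apart from GMNN in siRNA cells.

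Some facts of the whole series bear on these values. The control array differed from both others in many genes, as the shares above show, and HOTAIR's own level was not analysed here, so neither manipulation was checked by its target. Of 9 squamous markers, 6 were measured and all had signals of 8.82 or more, with median differences from control of -0.05 in vector and 0.04 in siRNA cells. KRT5, KRT14 and PKP1 were below control on both arrays (KRT14 at -1.16 in vector and -0.37 in siRNA cells) and SOX2, DSG3 and DSC3 above it (DSG3 at 0.67 and 0.87). Their summed linear signal, to which the keratins give most, was 14536 in vector and 20747 in siRNA cells, against 22245 in control cells. The 6 fibroblast and 3 endothelial markers were all below the filter. Of 4 haematopoietic markers measured, CD68 alone was above it, and was below control, at -0.89 in vector and -1.46 in siRNA cells. HBB, an erythroid gene above the filter, was at -0.57 and -0.41. Whether these shifts have a part in the members' differences was not tested.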

How the data were processed

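RNA was biotin-labelled by 3' in vitro transcription, per the labels' protocols, and read on 1 array per group. The authors deposited log2 signals per probe set. RMA is named in the submitters' processing notes, and that the scale is log2 follows from the values' range. Its version and settings: not given in the sources used here. Near background, RMA is known to compress differences. HOTAIR's own level was not analysed here.

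Probe sets were named from the platform annotation, with 44988 of 49293 carrying 1 symbol, 1832 several and 2473 not listed. A gene was represented by its brightest single-symbol probe set and kept where its mean over the arrays reached the median of all probe set means (5.28). All 41 members were kept. Genes at least 2-fold apart were counted. The arrays' quartiles were 3.58 and 7.55 in vector, 3.62 and 7.48 in siRNA and 3.72 and 7.35 in control cells. The number of arrays limits the precision.

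Members, lists and tests were chosen with earlier results of these data known. Members past 2-fold, with probe sets on both sides of it or next to it are given with all signals, other members by role group. Other pathway genes were named by size, up to 6 a direction. MCM2, ORC1, CDT1, CDC6, CDC45, GINS2, CHAF1B, CCNE1, MCM5, DBF4, TOPBP1, CHEK1 and the single markers named were added after their values were seen. Alternatives were the mean over probe sets, no filter, a filter at the 75th percentile, repeated quantile normalization, cyclic loess (limma 3.58.1, span 0.4, 3 cycles), leaving out _x_at and _s_at probe sets, thresholds of 1.5-fold and 3-fold, and centring on the median of all genes, the last chosen after seeing the data. The steps were tested on simulated arrays. Promoter windows and gene spans came from RefSeq (GRCh38.p14), and GC content was found for 83.0% of the genes kept. Python 3.11.15 with numpy 2.4.6, pandas 2.3.3 and matplotlib 3.10.9 was used.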

Additional observations from a re-analysis of the deposited data

How the results depend on the processing

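With 1 array per group there is no replicate to leave out and no error beyond that between probe sets. No paired analysis was possible because each group has 1 array and no test was made. The count of members at least 2-fold apart in vector minus control (8) became 4 with the filter at the 75th percentile, 18 at 1.5-fold and 4 at 3-fold. In siRNA minus control (also 8) it became 5 with that filter, 18 at 1.5-fold and 4 at 3-fold. The stricter filter keeps 35 members. It removes ORC3, CCNE2, MCM8 and CLSPN, which were all past 2-fold in vector cells, as well as MCM5 and CHAF1B. The shares of all genes that were higher were 15.8% and 15.7% with that filter and 8.15% and 7.25% at 3-fold. At 1.5-fold, 12 members were higher and 6 lower in vector cells, and 13 and 5 in siRNA cells, against 22.9% higher and 19.4% lower of all genes in vector cells and 22.8% and 18.0% in siRNA cells. Under the other settings the counts ran from 6 to 11 and from 8 to 10, all of them higher, and between the transfected arrays the 2-fold count was 0 in each setting run. The 1.5-fold count, made on the deposited values of the brightest probe sets, was 0 as well. ORC3, however, was at 0.63 without _x_at and _s_at probe sets, against 0.25 as deposited. The members' median moved by less than the spread between probe sets in every setting. The spread used for this section was the pooled SD over all genes, 0.36 in vector and 0.39 in siRNA minus control. Between the transfected arrays it was 0.21. That spread is of single probe sets, so it is a lenient bound for a median over many genes. The sign of the median turned in vector minus control without _x_at and _s_at probe sets (0.12) and after centring (0.03). In siRNA minus control it turned after cyclic loess (0.10) and centring (0.14). For 12 named members 227 of the alternative values moved by less than the spread between probe sets and 10 by more. Many of the 227 could not have moved by more. The filter settings leave a gene's value as it is, and centring shifts all genes by the same amount, smaller than that spread. The tally is therefore not a measure of how stable the values are. With the mean over probe sets ORC3 was at 2.73 and 2.36, CCNE2 at 2.62 and 2.20, and RFC3, at 0.60 in siRNA cells, missed 2-fold. Dim control signals limit the sizes for ORC3 and CCNE2.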
